A study of Mus musculus with 8 samples.

Results

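The genes described here are the Notch receptors *Notch1*, *Notch2*, *Notch3* and *Notch4*, their ligands *Jag1* and *Jag2*, and the target genes *Heyl*, *Hey1*, *Hey2* and *Hes1*, measured in cultured mouse dermal fibroblasts. The list was chosen by a measured value: *Heyl* was lower in TGFβ1FKO fibroblasts than in controls, and the pathway genes around it were added by name to ask whether other Notch targets fell with it. All 10 genes were found by symbol among the 15111 genes of the table. Because the difference of *Heyl* in this comparison chose the list, it is given as a description with no test, and the counts over the 10 genes that include it are no evidence of their own.

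RNA of primary dermal fibroblasts was sequenced in 4 libraries of TGFβ1FKO mice (Tgfb1fl/fl:Col1a2-CreERT) and in 4 libraries of controls (Tgfb1fl/fl), in which the same floxed gene was left intact because they lacked the Cre transgene. All mice were adult and tamoxifen-fed, and the tamoxifen-dependent Cre was driven by a *Col1a2* promoter and enhancer that are active in fibroblasts, though other cells that use them may also recombine. The cells came from digested back skin with its epidermis, were not sorted by a marker, and were kept for 72 h on fibronectin in serum replacement medium. Nothing in the labels says that the libraries of a group came from separate mice, so that p-values measure the spread between these libraries, which may be technical. Values are normalised counts, that is, the reads of a gene after scaling each library by its size factor, and differences are log2 fold changes of TGFβ1FKO against control on log2(normalised count + 1), a scale that understates the change of genes with few reads. A gene was called when limma's test gave a Benjamini-Hochberg adjusted p under 0.05 over all genes and an absolute log2 fold change over 0.6.

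In Notch signalling a ligand on the surface of a cell, such as Jagged1, binds a Notch receptor on its neighbour. The receptor is then cut by an ADAM protease and by γ-secretase, and its freed intracellular part enters the nucleus, where it joins the DNA-binding protein RBPJ and Mastermind and switches on genes for bHLH repressors of the Hes and Hey families. In skin and its vessels NOTCH3 is known as a receptor of mural cells, NOTCH4 as a receptor mainly of endothelial cells, and HeyL as a target that is often seen downstream of NOTCH3. Which Hes and Hey genes answer to Notch differs between cell types, and other pathways also act on them.

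The RBPJ site is shown for *Hey2*, the member whose start region held it. RefSeq start windows of GRCm38.p6, each 250 bases before to 50 after a start, were at hand for 7 of the 10 members, and those of *Heyl*, *Hey1* and *Hes1* were not analysed here. The core motif TGGGAA was searched on both strands (TTCCCA on the other), and so was GTGGGAA, a longer form that contains it. Only the *Hey2* window held a match among the 7 members, with 2 matches to both forms, at -207 to -202 on the antisense strand and at -3 to 3 on the sense strand, counted from the start with no position 0. Of all 32851 such windows, 25.6% held TGGGAA and 6.38% held GTGGGAA. The *Hey2* sequence from 250 bases before to 5 after the start (chr10:30842779-30843033, minus strand, GRCm38.p6) is printed 5′ to 3′ with the core motif in capitals. These letters are a description and show no binding.
Hey2: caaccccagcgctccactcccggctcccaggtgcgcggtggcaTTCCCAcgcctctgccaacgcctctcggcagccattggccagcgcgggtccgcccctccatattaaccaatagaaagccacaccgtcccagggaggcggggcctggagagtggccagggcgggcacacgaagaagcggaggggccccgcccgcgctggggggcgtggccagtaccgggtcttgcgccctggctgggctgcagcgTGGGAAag

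The recovered reads on listed genes summed to between 16988998 and 23071528 per library, and the sums of the groups overlapped. *Tgfb1*, the targeted gene, had 1401, 1298, 1483 and 1314 normalised counts in control replicates 1 to 4 and 326.4, 259.9, 228.4 and 294.7 in the TGFβ1FKO replicates. Its mean fell from 1374 ± 85.4 to 277.3 ± 42.5 (SD, n = 4 each), and every library matched its label. All 12 fibroblast markers on the marker list were in the table, among them *Col1a1* with 653500 ± 54460 and 664800 ± 27440 (SD, n = 4), and none of them was called. Across all genes 13 were called, which is 0.086% of those tested.

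*Heyl*, a bHLH repressor of the Hey family (ENSMUSG00000032744, chromosome 4 of GRCm38, 123233556 to 123249875), had 57.6, 34.0, 65.4 and 20.7 normalised counts in control replicates 1 to 4. In TGFβ1FKO replicates 1 to 4 it had 8.11, 3.11, 6.64 and 8.86. Each TGFβ1FKO library thus lay below each control library, and control replicate 4 was the lowest of the controls. The mean was 44.5 ± 20.7 in control and 6.68 ± 2.56 in TGFβ1FKO fibroblasts (SD, n = 4), or 15.0% of the control level, with a log2 fold change of -2.51 (SE 0.40). These values rest on 21 to 67 reads per control library and 3 to 8 reads per TGFβ1FKO library, and the library with 3 reads is at the limit that counting error sets here. In RNA of a whole culture, fewer cells of a type and less RNA per cell cannot be told apart. The spread within the groups was wide, with a coefficient of variation of 46.6% in control and 38.2% in TGFβ1FKO fibroblasts.

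The other target genes did not show this difference. *Hes1*, the most widely used readout of Notch activity and a repressor that other signals also induce (chromosome 16, 30064384 to 30067796), had 1405, 1365, 1692 and 1429 normalised counts in the control libraries. The TGFβ1FKO libraries held 1504, 1596, 1394 and 1571. The groups overlapped over nearly their whole range, and the log2 fold change was 0.05, with a 95% interval from -0.11 to 0.20 (adjusted p = 0.917, limma). For *Hes1*, with 1285 to 1679 reads per library, a change of 0.6 in either direction lay outside the interval.

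*Hey1* and *Hey2* encode the repressors most closely related to HeyL, known from vessel and heart development. *Hey1* (chromosome 3, 8663359 to 8667256) had 10.3, 14.9, 13.3 and 11.9 normalised counts in control and 6.08, 14.5, 11.6 and 14.4 in TGFβ1FKO fibroblasts. Only TGFβ1FKO replicate 1 lay below the controls, and the log2 fold change was -0.16 (95% interval -0.88 to 0.57, adjusted p = 0.94, limma). *Hey2* (chromosome 10, 30832359 to 30842801), whose RBPJ core motifs are printed above, had 14.6, 15.9, 11.1 and 21.7 in control and 10.1, 25.9, 12.5 and 15.5 in TGFβ1FKO fibroblasts. The groups were interleaved, with the highest and the lowest library of *Hey2* both in the TGFβ1FKO group, and the log2 fold change was -0.03 (95% interval -0.76 to 0.70, adjusted p = 0.991, limma). With 6 to 14 reads of *Hey1* and 10 to 25 of *Hey2* per library, a fall of 0.6 still lay within both intervals, whereas a fall as large as the -2.51 of *Heyl* lay outside them. The direction of *Hey1* and *Hey2* was not stable: without TGFβ1FKO replicate 1 their log2 fold changes were 0.10 and 0.14, and *Hey2* was also above 0 without control replicate 4 (0.12) or TGFβ1FKO replicate 3 (0.05).

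**Figure D1:**
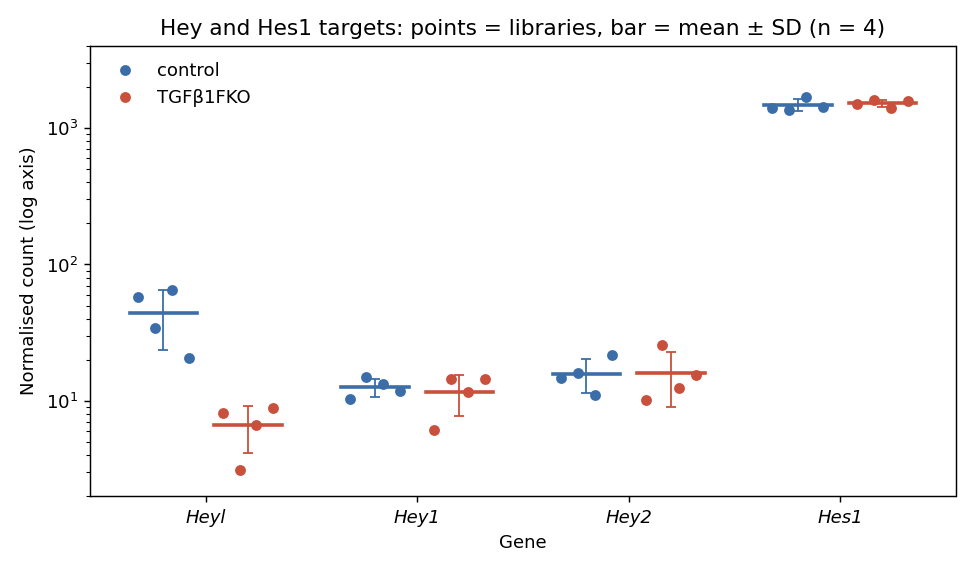
Normalised counts (log axis) of the target genes *Heyl*, *Hey1*, *Hey2* and *Hes1*, with 1 point per library, control in blue and TGFβ1FKO in red, and a bar with the mean ± SD (n = 4). The *Heyl* points of the groups are apart (20.7 to 65.4 against 3.11 to 8.86), while those of the other 3 genes overlap.

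Set against each of the other targets within each library, *Heyl* lay lower in every TGFβ1FKO library than in any control. On the mean it passed from above to below *Hey1* and *Hey2*, while it lay below *Hes1* in every library. Levels are given here on the log2 scale, first without correction for exon length. *Heyl* minus *Hes1* was -6.04 to -4.58 in control and -8.60 to -7.32 in TGFβ1FKO libraries. *Heyl* minus *Hey2* was -0.06 to 2.46 in control, below 0 in replicate 4 only, and -2.71 to -0.29 in TGFβ1FKO libraries. The log2 level of *Heyl* was above that of *Hey1* in all 4 control libraries, by 0.76 to 2.37. In TGFβ1FKO fibroblasts it was above it in replicate 1 only (by 0.36) and below it in the others (-1.92 to -0.64). Corrected for exon length, *Heyl* lay below *Hey1* in every TGFβ1FKO library (0.61 to 1.73 against 1.86 to 4.44 normalised counts per kb). Per kb of exon, *Heyl* took 52.1% ± 16 of the summed level of the 3 Hey genes in control and 17.3% ± 9.15 in TGFβ1FKO libraries (SD, n = 4). The sum of the 3 Hey genes was 12.4 to 19.3 normalised counts per kb in control and 5.66 to 10.7 in TGFβ1FKO libraries. The sum with *Hes1* did not show this difference: *Hes1* made up at least 97.5% of the summed level of the 4 targets in every library. That sum was 739 ± 75.0 in control and 752.8 ± 45.7 normalised counts per kb in TGFβ1FKO fibroblasts (SD, n = 4). These shares follow from the values of *Heyl* that chose the list and are given with no test.

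Among the receptors, *Notch2* (chromosome 3, 98013527 to 98150361), a receptor found in many tissues, was the most abundant per length. It had 1811, 2464, 1664 and 2214 normalised counts in control and 2321, 2174, 2453 and 2158 in TGFβ1FKO fibroblasts, with a log2 fold change of 0.17 (95% interval -0.05 to 0.40, adjusted p = 0.725, limma). *Notch1* (chromosome 2, 26457903 to 26516663), the receptor best known from keratinocytes and blood cells, had 608.2, 855.3, 734.1 and 612.3 in control and 710.5, 822.3, 852.8 and 756.7 in TGFβ1FKO fibroblasts. In both genes the TGFβ1FKO libraries lay within the range of the controls, and *Notch1* had a log2 fold change of 0.17 (95% interval -0.06 to 0.40, adjusted p = 0.73, limma). The exons of *Notch1* share 1068 bases with the antisense gene *0610009E02Rik*, and as the libraries were not directional these reads cannot be told apart. *Notch1* exons also share 414 bases with the antisense gene *Gm13568*. Those of *Notch2* share 541 bases with *Gm42820* on the same strand. Neither *Gm13568* nor *Gm42820* is in the table.

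*Notch3* (chromosome 17, 32120820 to 32166852), the receptor of mural cells, had 473.2, 630.1, 687.5 and 679.5 normalised counts in control and 607.2, 856.5, 675.9 and 767.8 in TGFβ1FKO fibroblasts. The lowest library was control replicate 1 and the highest TGFβ1FKO replicate 2, with a log2 fold change of 0.24 (95% interval -0.04 to 0.51, adjusted p = 0.703, limma). Its exons share 488 bases with the antisense gene *Gm17276*, which is not in the table.

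*Notch4* (chromosome 17, 34564268 to 34588503) was the receptor with the lowest level and the 1 other member whose groups did not overlap. It had 31.0, 27.6, 38.8 and 26.7 normalised counts in control replicates 1 to 4 and 22.3, 23.8, 13.3 and 16.6 in the TGFβ1FKO replicates. The TGFβ1FKO libraries lay below all controls, but the nearest of them were 23.8 and 26.7, or 23 and 27 reads. The mean was 31.0 ± 5.51 in control and 19.0 ± 4.91 in TGFβ1FKO fibroblasts (SD, n = 4), with a log2 fold change of -0.70 and a 95% interval from -1.25 to -0.14. It was not called (unadjusted p = 0.0174, adjusted p = 0.597, limma), and by p it ranked 437 in the table. Endothelial markers, which include genes of cells that use *Notch4*, lay the same way: 15 of the 16 on the list were in the table, all 15 had a log2 fold change below 0 (median -0.47), and none was called. Their summed normalised count was 750.6 to 1235 in control and 743 to 838.9 in TGFβ1FKO libraries. *Pecam1* was at 26.7 to 71.0 in control and 16.6 to 44.5 in TGFβ1FKO libraries. Their part in the value of *Notch4* was not tested.

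*Jag1* (chromosome 2, 137081456 to 137116644) encodes Jagged1, the ligand with the highest level per length here. It had 974.7, 1425, 1369 and 1242 normalised counts in control and 1104, 1581, 1163 and 1408 in TGFβ1FKO fibroblasts. The groups overlapped, and the log2 fold change was 0.07 (95% interval -0.21 to 0.35, adjusted p = 0.928, limma); its sign turned to -0.05 without control replicate 1 and to -0.03 without TGFβ1FKO replicate 2. *Jag2* (chromosome 12, 112907819 to 112929776), the second Jagged ligand, had 4 to 7 reads per control and 4 to 9 per TGFβ1FKO library, with normalised counts of 4.25 to 6.02 and 3.32 to 9.32. At this depth the log2 fold change of 0.26 had a 95% interval from -0.63 to 1.14 (adjusted p = 0.916, limma), so that a change of 0.6 in either direction was not detectable.

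**Figure D2:**
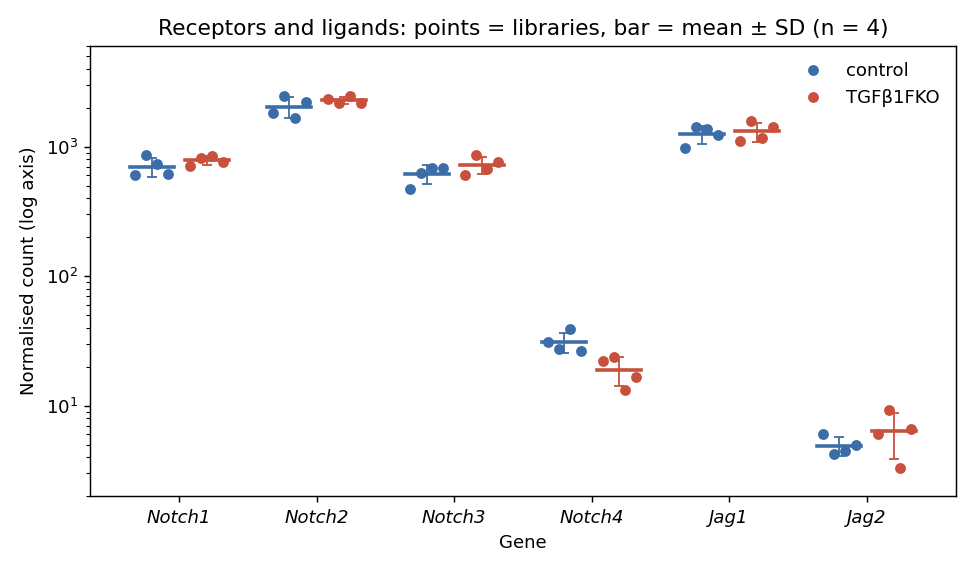
Normalised counts (log axis) of the 4 receptors and 2 ligands, with 1 point per library, control in blue and TGFβ1FKO in red, and a bar with the mean ± SD (n = 4). *Notch1*, *Notch2*, *Notch3* and *Jag1* lie between 473.2 and 2464 in every library, *Notch4* and *Jag2* under 39, and the groups are apart in *Notch4* only.

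Compared per length, the level of the members spanned a wide range. In control fibroblasts *Hes1* was highest at 723 ± 72.9 normalised counts per kb of exon, followed by *Jag1* at 215 ± 34.4 and *Notch2* at 189.1 ± 34.0 (SD, n = 4). *Notch3* (76.3 ± 12.3) and *Notch1* (49.4 ± 8.25) came next. *Jag1* and *Notch2* overlapped between libraries, and so did *Notch3* and *Notch1*, so that the order within these pairs is not settled by the spread. *Heyl* followed at 8.69 ± 4.05, overlapping *Hey1* (3.86 ± 0.60), which in turn overlapped *Notch4* (3.85 ± 0.68), and *Notch4* overlapped *Hey2* (3.45 ± 0.96). *Jag2* was lowest at 0.71 ± 0.11. In TGFβ1FKO fibroblasts *Heyl* was at 1.31 ± 0.50 per kb, below the mean of *Hey1* (3.57 ± 1.21), *Hey2* (3.48 ± 1.51) and *Notch4* (2.36 ± 0.61). Among the receptors, per kb, *Notch2* made up 59.2% ± 4.65 and *Notch4* 1.24% ± 0.34 of the summed level in control fibroblasts (SD, n = 4). In TGFβ1FKO fibroblasts these shares were 58.9% ± 3.64 and 0.66% ± 0.18. Exon lengths were taken over all GENCODE transcripts of a gene, so that genes with long unused exons come out too low.

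*Heyl* is left out of the counts that follow. Of the 9 other members limma's test called none, beside 0.086% of all genes. At an unadjusted p under 0.05 there was 1 of the 9 (*Notch4*), beside 7.46% of all genes. Of the 9 others, 1 was lower without overlap of the groups, beside 2.1% of all genes, and 0 were higher without overlap, beside 1.69%. Their log2 fold changes ranged from -0.70 to 0.26, with 3 below and 6 above 0 and a median of 0.07, where the median of all genes was 0.003. A count of 1 among 9 genes says little beside these shares.

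**Figure D3:**
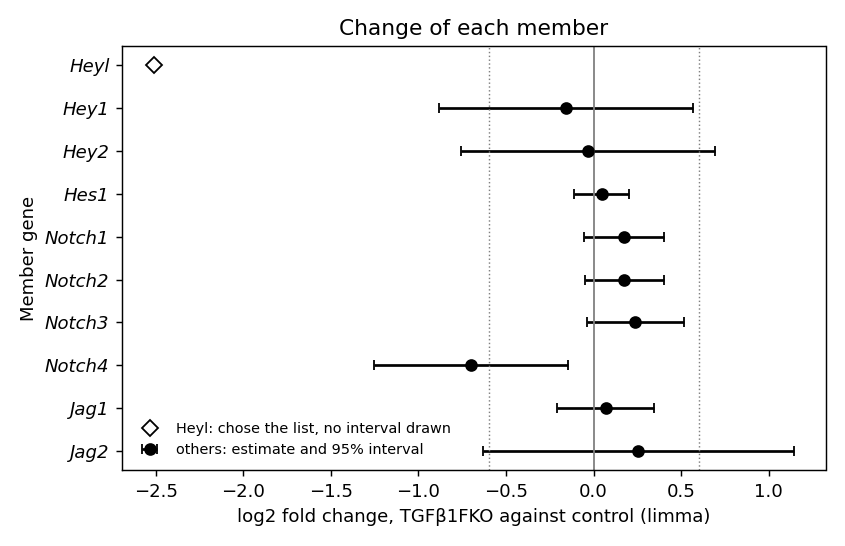
Log2 fold change of each member, TGFβ1FKO against control, with the 95% interval of limma's fit (bars) for the 9 members other than *Heyl*, and dotted lines at an absolute value of 0.6. *Heyl* lies at -2.51 and is drawn without an interval, *Notch4* at -0.70, and the others between -0.16 and 0.26 with intervals that cross 0.

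Of 54 other genes of the pathway on a list by role, 45 were in the table. Limma's test called 0 of the 45, beside 0.086% of all genes. At an unadjusted p under 0.05 there were 2 lower and 4 higher, beside 7.46% of all genes in either direction. Without overlap of the groups 1 was lower, beside 2.1% of all genes, and 1 was higher, beside 1.69%. The median log2 fold change was -0.01, with 26 genes below and 19 above 0.

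Ligands on the list were scarce. *Dlk1*, a non-canonical ligand that lacks the receptor-activating DSL domain, was the most abundant of them at 20.3 normalised counts per kb in control fibroblasts, and *Dll1*, a canonical ligand, had 48.1 ± 3.70 normalised counts in control and 39.9 ± 9.78 in TGFβ1FKO fibroblasts (SD, n = 4). *Dll3*, *Dll4* and *Dlk2* were not in the table. Among the enzymes that glycosylate the receptors, *Pofut1*, which adds O-fucose, differed by -0.01 on the log2 scale (adjusted p = 0.986, limma). *Lfng*, the Fringe enzyme that alters ligand preference, had 69.4 ± 27.1 and 82.2 ± 10.9 normalised counts (SD, n = 4). Of the E3 ligases that let ligands be taken up, *Mib2* differed by -0.01 on the log2 scale (adjusted p = 0.994, limma), and *Neurl1b*, with the lowest estimate on the list at -0.87, had 5 to 41 reads per library and did not pass (adjusted p = 0.703, limma).

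Genes for the cleavage of the receptor came next. *Ncstn*, a subunit of γ-secretase, had 4180 ± 115.9 normalised counts in control and 4190 ± 151.3 in TGFβ1FKO fibroblasts (SD, n = 4). *Psenen*, another subunit of γ-secretase, had 881.8, 887.2, 917 and 902.7 in control and 840.3, 803.6, 793.8 and 754.5 in TGFβ1FKO fibroblasts. The *Psenen* groups did not overlap, but its log2 fold change of -0.17 did not pass (adjusted p = 0.536, limma). In the nuclear complex *Rbpj*, the DNA-binding partner of the receptor, had a log2 fold change of 0.13 and *Maml1*, a coactivator, of 0.07, and neither passed (adjusted p = 0.703 and 0.854, limma).

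Of 6 other genes listed as targets, *Hes5*, *Hes7*, *Nrarp* and *Dtx1* were not in the table. *Ccnd1*, which encodes cyclin D1, and *Myc* were, and both also answer to many growth signals. *Ccnd1* had 5385 ± 664.2 normalised counts in control and 7232 ± 1520 in TGFβ1FKO fibroblasts (SD, n = 4), a difference of 0.41 on the log2 scale (adjusted p = 0.51, limma). *Myc* differed by 0.14 on the same scale (adjusted p = 0.64, limma). Among related bHLH repressors *Bhlhe40* was the most abundant per length, with a difference of -0.05 (adjusted p = 0.872, limma); limma called none of the 3 in the table.

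**Figure D4:**
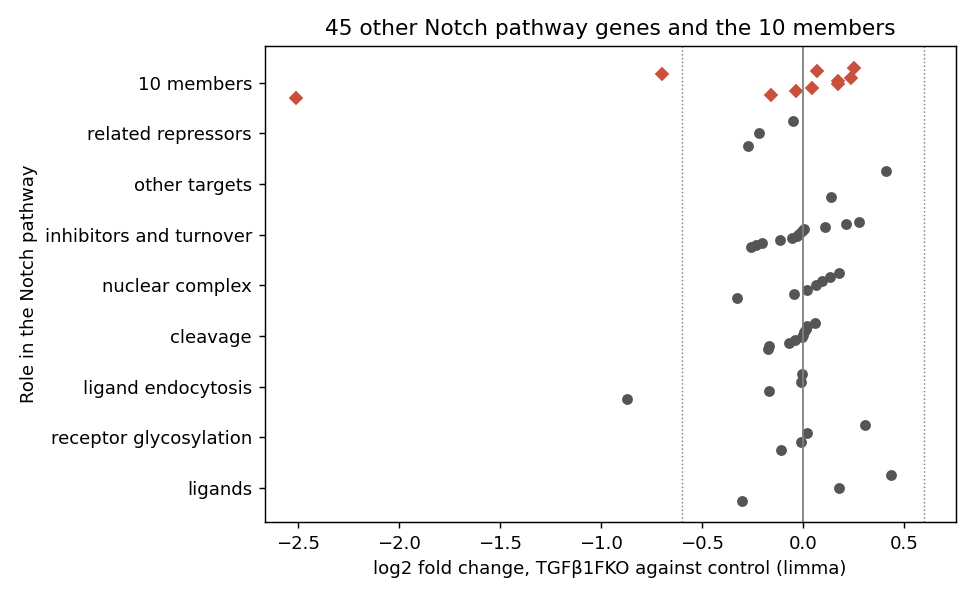
Log2 fold changes, TGFβ1FKO against control, of the 45 other Notch pathway genes by role (grey points) and of the 10 members (red diamonds), with dotted lines at an absolute value of 0.6. Apart from *Heyl*, *Notch4* and *Neurl1b*, every gene lies within the dotted lines.

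Markers of other cell types are given beside *Heyl* list by list. Of 17 Schwann cell markers 14 were in the table, 13 had a log2 fold change below 0 and 9 were lower without overlap of the groups, beside 2.1% of all genes, with a median of -2.15. *Sox10* and *Foxd3*, transcription factors of neural crest and glia, were among those called (adjusted p = 0.00499 and 0.00757, limma). That these glial genes were lower was known when the list was written. The authors also kept genes by their reads summed over all libraries, so some of these markers passed mainly through the controls. *Foxd3*, for example, had 36.5 to 119.8 normalised counts in control and 3.04 to 9.13 in TGFβ1FKO libraries. The counts and p-values of this list are therefore a description. *Sox10* had 132.5, 147.7, 207.4 and 72.1 normalised counts in control and 19.3, 7.25, 18.3 and 21.1 in TGFβ1FKO fibroblasts. Control replicate 3 was the highest and control replicate 4 the lowest control for *Heyl*, *Sox10* and *Foxd3* alike, and TGFβ1FKO replicate 2 was the lowest of its group for *Heyl* and *Sox10*, but not for *Foxd3*. Control replicate 3 was also the highest and control replicate 4 the lowest control for *Notch4*. The same held for the endothelial markers *Pecam1*, *Cdh5*, *Tie1*, *Emcn*, *Erg*, *Cldn5*, *Plvap* and *Robo4*. The remaining endothelial markers in the table (*Kdr*, *Tek*, *Egfl7*, *Esam*, *Sox18*, *Vwf* and *Flt1*) had another order. Of these, *Kdr*, *Esam*, *Sox18* and *Flt1* were also lowest in control replicate 4. *Tek* was highest in control replicate 2 and *Vwf* in control replicate 4. What lies behind the order of the controls was not tested. The summed level of the Schwann cell list was 2430 to 3612 in control and 1498 to 2573 in TGFβ1FKO libraries, which overlap. *Ngfr* (mean 1446 in control and 971.2 in TGFβ1FKO libraries) and *Egr2* (577.9 and 545.6) dominate this sum, so that *Sox10* and *Foxd3* weigh little in it. *Pmp2* and *Gfap* were among the genes of this list that were not in the table.

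Mural cells also express *Heyl*. Of 11 mural markers 8 were in the table, 5 below and 3 above 0; the median difference was -0.15 on the log2 scale and limma called none. The summed level was 52670 to 57510 in control and 54270 to 61930 in TGFβ1FKO libraries. *Acta2* and *Pdgfrb* dominate this sum, and fibroblasts express them too. *Rgs5*, a defining pericyte gene, had 18.8 to 28.7 normalised counts in control and 9.12 to 44.3 in TGFβ1FKO libraries, and *Kcnj8*, *Higd1b* and *Cox4i2* were not in the table. Among the 5 below 0, *Cspg4* had 409.5 to 787.3 in control and 351.1 to 504.9 in TGFβ1FKO libraries (log2 fold change -0.50, adjusted p = 0.599, limma). *Abcc9*, also below 0, had few reads, with 5.16 to 13.8 in control and 1.01 to 9.97 in TGFβ1FKO libraries (log2 fold change -1.20, adjusted p = 0.669, limma). *Myh11*, a smooth muscle myosin, had 419.1 to 498.3 in control and 556.5 to 915.9 in TGFβ1FKO libraries and was higher without overlap (log2 fold change 0.71, adjusted p = 0.0649, limma). Of 9 skeletal muscle markers *Acta1* alone was in the table, so that *Pax7*, *Myf5* and *Myod1*, which define muscle stem cells, were not. Of 9 keratinocyte markers 4 were in the table, with sums of 112.7 to 152.1 in control and 147.8 to 172.9 in TGFβ1FKO libraries, and of 5 myeloid markers 3, with 456.9 to 550.1 and 296.4 to 513.7. No gene of these 4 lists was called. The part that any of these cell types has in the values of *Heyl* was not tested.

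**Figure D5:**
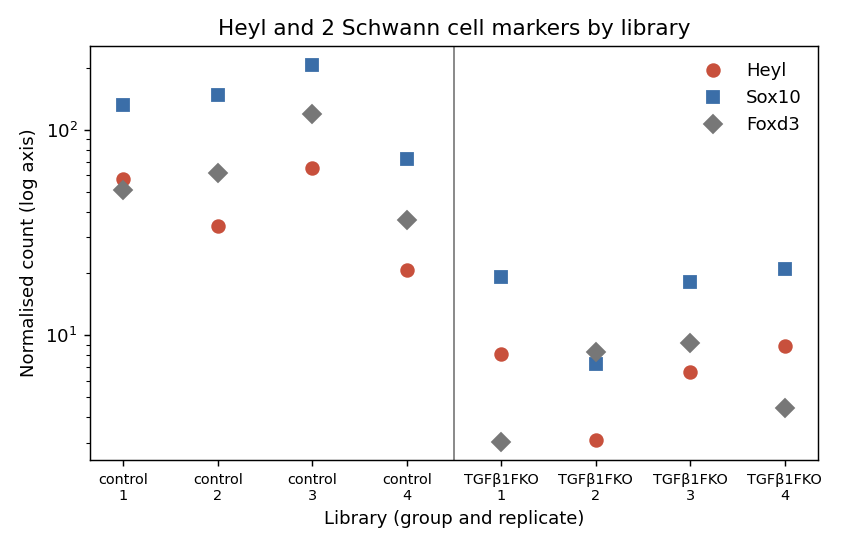
Normalised counts (log axis) of *Heyl* (red) and the Schwann cell markers *Sox10* (blue) and *Foxd3* (grey) in each of the 8 libraries, controls on the left and TGFβ1FKO on the right of the line. All 3 genes are lower in each TGFβ1FKO library than in any control, and control replicate 4 is the lowest control in each.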

How the data were processed

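The authors used HISAT2 against the GRCm38 genome, dropped genes whose counts summed to little, and normalised with DESeq2, and the labels also name featureCounts 1.5.0-p3. The deposited normalised counts are a signal: reads over the size factor of a library, plus 0.5. The authors also deposited the mean, fold change, standard error, statistic and p-values of their own comparison, which were not used. Here 0.5 was subtracted. All values (100%) were then whole multiples of the worth of 1 read, within 0.1 of a read, which gave the reads quoted. A count of 3 was taken as the limit of counting error, which is all it covers.

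Libraries were grouped by their titles. The test was that of limma 3.58.1, run in R 4.3.3 (mean-variance trend, pseudocount 1) over all 15111 genes, without a filter. The tests were checked on simulated data. Alternatives were pseudocounts of 0.5 and 5, at least 10 reads in every library, the replicate number as a block, each library left out and, chosen after seeing the data, upper-quartile scaling. GENCODE M21 gave coordinates and exon lengths for 15098 of the genes. Replicates of a group differed by more than sampling noise (the lowest ratio of chi-square to its degrees of freedom was 5.14). Members and lists were chosen with earlier results of these data known. Named were all members, *Tgfb1*, pathway genes that were called, did not overlap or were the most abundant of their role, called markers (some of these genes are not reported here), and the 5 genes most like *Heyl* within groups; *Dll1*, *Lfng*, *Neurl1b*, *Rbpj*, *Myc*, *Col1a1* and the uncalled markers were named after their values were seen.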

Additional observations from a re-analysis of the deposited data

How the results depend on the processing

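The log2 fold change of *Heyl* stayed between -2.82 and -2.00 in the 12 alternatives that kept it, and with at least 10 reads in every library it was not tested. The count of members past the thresholds, 1, was 0 with that filter and 0 to 1 with a library left out (1 without control replicate 4 only); as it counts the gene that chose the list, it is no test of it. The count of all genes called, 13, was 3 with the filter, which left 12946 genes, and 5 to 32 with a library left out, with 32 without control replicate 4. Apart from the smaller number of genes or libraries, the cause was not tested. No other member and no other pathway gene was called in any alternative that tested it; the filter also removed *Hey1*, *Jag2* and each pathway gene with fewer reads in a library. With a library left out the log2 fold change ranged from -0.28 to 0.10 for *Hey1*, from -0.28 to 0.14 for *Hey2* and from -0.047 to 0.15 for *Jag1*; no other member changed sign. *Notch4* stayed between -0.81 and -0.55, with adjusted p-values from 0.417 to 0.932. With the replicate number as a replicate block, 31 genes were called. Whether the numbers pair the libraries is not settled. Deviations from the group means correlated at 0.156, -0.134, 0.052 and 0.159 for numbers 1 to 4, and not every library correlated best with its own number. So few correlations cannot exclude a batch shared by number. Count tests (edgeR and DESeq2) and TMM scaling, which had been listed as alternatives, were not run. Few reads limit *Heyl*, *Hey1*, *Hey2*, *Notch4* and *Jag2*.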

Other observations

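The genes whose deviations from their group means were most like those of *Heyl*, over 8 libraries and among 11561 genes with a mean of at least 50 normalised counts, were *Mcts2* (Pearson's r = 0.99), *Msto1* (0.98), *Rhoc* (0.97), *Abhd11* (0.97) and *Dnajc19* (0.97). With 8 libraries that share depth and composition, and 3 to 67 reads of *Heyl* in each, these values are a description. The 5 were picked as the highest of 11561 correlations. As the group means were subtracted first, r covers likeness within the groups only. The log2 fold changes of the 5 lay in the range from -0.13 to 0.05. For the other members r with *Heyl* ran from -0.84 (*Hey2*) to 0.26 (*Hes1*), with -0.55 for *Notch2* and -0.51 for *Notch3*. *Hey1*, *Hey2*, *Notch4* and *Jag2* lay below the mean of 50 that the search for like genes required.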
